A study of Prunus dulcis and Prunus persica and Prunus persica x Prunus dulcis with 15 samples.

Results

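Transposable elements (TEs) of the peach genome that were methylated at CG sites but hardly at CHG sites, where H is any base but G, are described here. They were chosen by the peach values alone, as TEs with at least 70% CG methylation and at most 10% CHG methylation in peach leaves, and are called CG-only TEs. The rule found 370 of them among 20791 peach TEs with a value in both contexts, or 1.78%, and among 33879 TEs listed. Leaves were compared from peach (Prunus persica) cv Early Gold, from almond (Prunus dulcis) cv Texas and from an F1 hybrid of both species, a single genotype. All trees grew in the same field station with normal watering, and fully expanded leaves were picked at the end of September. Bisulphite sequencing, which reads unmethylated cytosines as thymines, was made on 2 libraries per genotype, and RNA sequencing on 3 libraries per genotype. The methylation table gives 1 percentage per TE, context and genotype, with both libraries of a genotype joined and without the coverage behind it. The depth per TE and the spread between libraries are therefore unknown for methylation, and all methylation results are descriptions without a test.

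In plants, CG methylation is copied at each DNA replication by the methyltransferase MET1, whereas CHG methylation is kept up by chromomethylases such as CMT3, which are drawn to histone marks of silent chromatin. CHH methylation is set anew by the small RNA directed pathway through DRM methyltransferases, or by the chromomethylase CMT2. These roles are known best from Arabidopsis. Silenced TEs usually carry all 3 kinds, and methylation at CG alone is known mainly from the transcribed bodies of genes. The position of the CG-only TEs relative to genes was not analysed here.

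By the choice itself, CG methylation was high and CHG methylation low in these TEs. The median CG level was 94.3%, with quartiles of 86.8% and 96.5%, and 248 of the 370 exceeded 90%. The median CHG level was 1.38%, with quartiles of 0.294% and 4.01%, and 63 TEs had a CHG level of exactly 0. Most of them were thus far from both limits of the rule. For comparison, 19029 peach TEs reached 70% at CG sites and exceeded 10% at CHG sites (CG and CHG TEs), with a median CHG level of 72.4%. A further 498 had less than 20% CG methylation (low CG TEs), and 894 lay between (intermediate CG). On the other side of the CHG limit, 175 of the CG and CHG TEs had a CHG level between 10% and 20%. That is a small part of the CG and CHG TEs but not small beside the 370 CG-only TEs, so the limit marks no clear gap. Limits of 60% CG and 20% CHG chose 604 TEs.

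The TEs nearest to the limits were of mixed kinds. Just inside the CG limit stood TE_21495 with 70.1% CG methylation, TE_8300 with 70.5%, TE_12849 with 71.0%, TE_7953 with 71.2% and TE_16749 with 71.3%. Just outside it were TE_12516 with 69.97%, TE_32921 with 69.3%, TE_29043 with 69.3%, TE_30 with 68.5% and TE_19239 with 68.3%. At the CHG limit, TE_13955 had 9.99%, TE_6581 9.90%, TE_19288 9.88%, TE_91 9.88% and TE_13935 9.66%. The nearest excluded TEs by CHG level were TE_28310 at 10.07%, TE_32896 at 10.09%, TE_11615 at 10.2%, TE_19223 at 10.2% and TE_23604 at 10.2%. Members of the same family occurred on both sides of either limit, such as the LTR element Ppersica_LTRretrotransposon1158 at the CHG limit.

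CHH methylation, which the rule did not use, was also low in the CG-only TEs. Its median was 0.665% (quartiles 0.0613% and 1.76%, 370 TEs), against 9.48% in the CG and CHG TEs and 0.567% in the low CG TEs. A CHH level under 2% was found in 283 of the 370 CG-only TEs (76.5%), in 2.32% of the CG and CHG TEs and in 77.7% of the low CG TEs. In CHH methylation the CG-only TEs thus resembled TEs without CG methylation. Bisulphite conversion, measured by the study on chloroplast DNA, was incomplete in all 3 genotypes, so CHH levels and differences as low as these cannot be told apart from unconverted cytosines, whose share per TE is not given. The same holds for CHG levels and differences of this size. By class, the median CHH level ran from 0.118% in LINEs and 0.470% in TEs of unknown class through 0.687% in TIR elements and 1.39% in LTR elements to 3.17% in MITEs.

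A small group went against this. CHH methylation exceeded 10% in 9 CG-only TEs. It exceeded the TE's own CHG level in 83, but that count alone does not go against the low CHH levels. The 83 include TEs with low levels in both contexts, which cannot be told apart from unconverted cytosines. The highest CHH level was 22.3% in TE_3586, a 195 bp stretch of Ppersica_LTRretrotransposon3214 with 100% CG and 6.67% CHG methylation. TE_31157, 896 bp of the LTR element Ppersica_LTRretrotransposon18, had 21.5% CHH, 97.3% CG and 6.25% CHG methylation, and in the hybrid its CHH level was 33.7%. TE_1172, a MITE of 388 bp, had 19.4% CHH, 98.96% CG and 4.17% CHG methylation. None of these 3 had both CG and CHG values in the hybrid, and all were under 1 kb long.

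**Figure D1:**
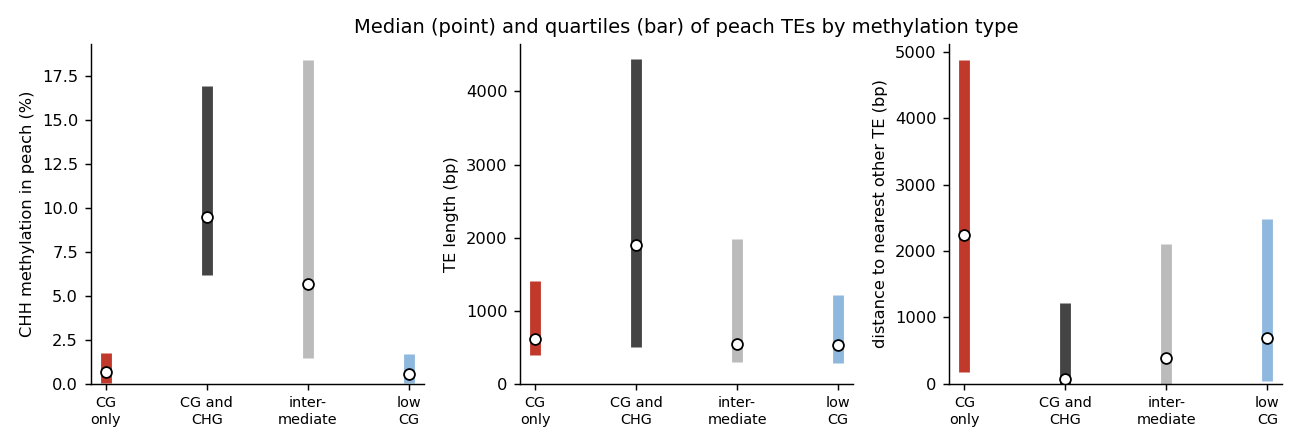
CHH methylation in peach (%), TE length (bp) and distance to the nearest other TE (bp) of CG-only TEs (370), CG and CHG TEs (19029), intermediate CG TEs (894) and low CG TEs (498), with points for medians and bars from the lower to the upper quartile. CG-only TEs had a median CHH level of 0.665%, a median length of 608.5 bp and a median gap of 2233 bp, against 9.48%, 1893 bp and 68 bp in CG and CHG TEs.

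By their medians, the CG-only TEs were short and stood apart from other TEs. Their median length was 608.5 bp (quartiles 391.75 bp and 1409.5 bp), against 1893 bp for CG and CHG TEs and 526.5 bp for low CG TEs. The distance to the nearest other listed TE had a median of 2233 bp, against 68 bp for CG and CHG TEs, 690 bp for low CG and 388 bp for intermediate CG TEs. Only 47 of the 370 (12.7%) overlapped another listed TE, compared with 7927 of the 19029 CG and CHG TEs (41.7%). The number of other TEs within 100 kb was nearly alike, with medians of 33 and 36. The isolation was therefore local, at the scale of a few kb. It did not hold for the 47 CG-only TEs in the runs of LTR elements described further on. Those had a median length of 5311 bp and a median gap of 3 bp, against 531 bp and 2692 bp in the other CG-only TEs.

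Neighbouring TEs were mostly fully methylated. The mean CHG level of the other TEs within 100 kb had a median of 63.3% around CG-only TEs and of 66.7% around CG and CHG TEs. However, 198 of the 370 CG-only TEs (53.5%) had another CG-only TE within 100 kb, whereas 23.5% of the CG and CHG TEs and 19.9% of the low CG TEs had one. They occurred on all 8 chromosomes, at 1.42% of the TEs with values on chromosome 2 up to 2.61% on chromosome 5, and 2 lay on unplaced scaffolds. Because 32 of them overlapped another CG-only TE, the 370 TEs make up 352 separate loci.

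LINEs, retrotransposons without long terminal repeats that copy themselves through RNA from an internal promoter, were the class most often found in this state. Of 619 peach TEs with values that could be assigned to LINEs, 109 were CG only (17.6%). These assigned LINEs made up 2.98% of the TEs with values but 29.5% of the CG-only TEs. LTR retrotransposons, which carry a promoter in each terminal repeat, gave the most members in number, 122, but these were 0.978% of 12474. TIR elements, DNA transposons with terminal inverted repeats, gave 28 of 1956 (1.43%). MITEs, short non-autonomous DNA transposons, gave 28 of 2804 (0.999%), and 83 of 2852 TEs without a known class (2.91%) were CG only. A class was not known for 22.4% of the CG-only TEs, since the TE annotation was held only in part. The study counted more LINE copies in peach than could be assigned here, so TEs of unknown class may include further LINEs. The shares by class hold for the assigned copies only.

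The assigned LINEs exceeded the other classes at matched length. Among TEs from 300 bp to under 500 bp, 37 of 117 LINEs were CG only (31.6%) and 26 of 1173 LTR elements (2.22%). Among TEs of at least 3 kb the shares were 6 of 83 (7.23%) and 40 of 4683 (0.854%). In LINEs, TIR elements and TEs of unknown class the share was lower at 3 kb or more than in any shorter bin. In LTR elements it was lowest from 1 kb to under 3 kb, at 0.690%. CG-only LINEs also had a lower CHG level than CG-only LTR elements, with medians of 0.568% and 3.47%, and lay farther from other TEs, with medians of 3865 bp and 512 bp. Without the runs of LTR elements described further on, the LTR medians were 2.58% and 1725 bp, so the contrast was smaller. The limit set by incomplete conversion applies to CHG levels of this size. Among LINEs alone, CG and CHG copies had a median length of 1213 bp and a median gap of 268 bp, against 536 bp and 3865 bp for CG-only copies, so the difference in length and isolation was not only one of class.

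**Figure D2:**
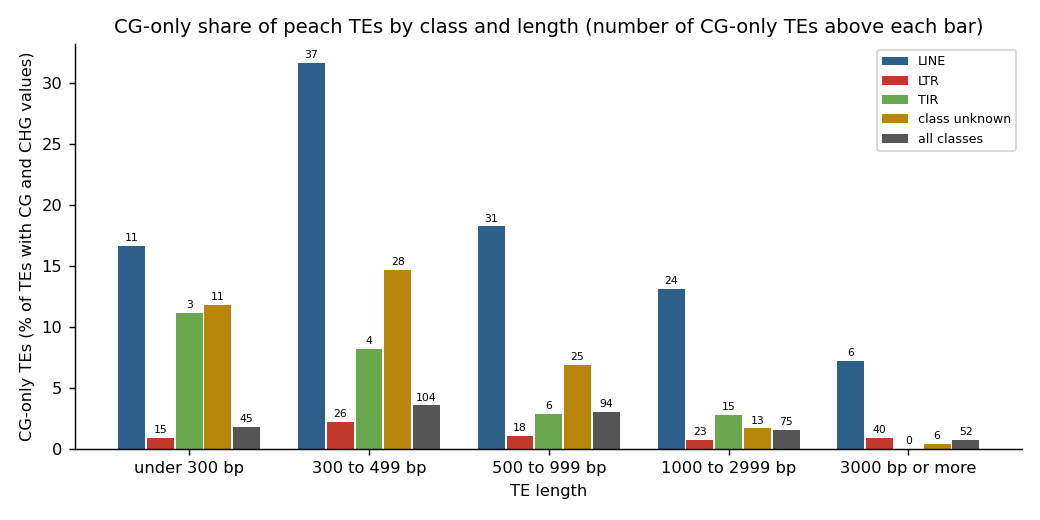
Share of peach TEs that were CG only (% of TEs with CG and CHG values, bars from 0) by TE length and class, with the number of CG-only TEs above each bar. LINEs, as far as they could be assigned, had the highest share in each length bin, with a peak of 31.6% from 300 bp to under 500 bp. LTR elements stayed between 0.690% and 2.22%.

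The CG-only state went with particular families. The 370 TEs came from 153 families or reference copies, of which 97 had a single CG-only TE, while 19 with at least 5 each held 182. The 5 with most CG-only TEs held 88. Tedenovo4017, a LINE family on 8 chromosomes, had 22 CG-only copies among 34 with values. Tedenovo10923, also LINE, had 19 of 33, and only 1 of its other copies was methylated at both CG and CHG. Tedenovo3645, a LINE family, had 18 of 25, and its remaining copies were longer, with a median of 1967 bp against 423.5 bp, and had a median CHG level of 78.8%. Tedenovo3452, another LINE family, had 16 of 18 CG-only copies, and none of its copies was methylated at both CG and CHG. The copies of these LINE families were spread over 7 or 8 chromosomes, so the state recurred at separate places.

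The LTR element Ppersica_LTRretrotransposon1158 was different. It had 13 CG-only copies, but these were 5.37% of its 242 copies with values, and 12 of the 13 stood within the runs described further on. Its CG-only copies had a median CHG level of 8.23% and a median CHH level of 4.43%, and its remaining copies had a median CHG level of 36.0%. Among smaller sets, all 5 copies of Tedenovo11251 with values, 8 of 9 of Tedenovo5145 and 5 of 6 of the LTR element Ppersica_LTRretrotransposon5115 were CG only. The TIR family with most CG-only copies was Tedenovo10443, with 7 of 18.

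**Figure D3:**
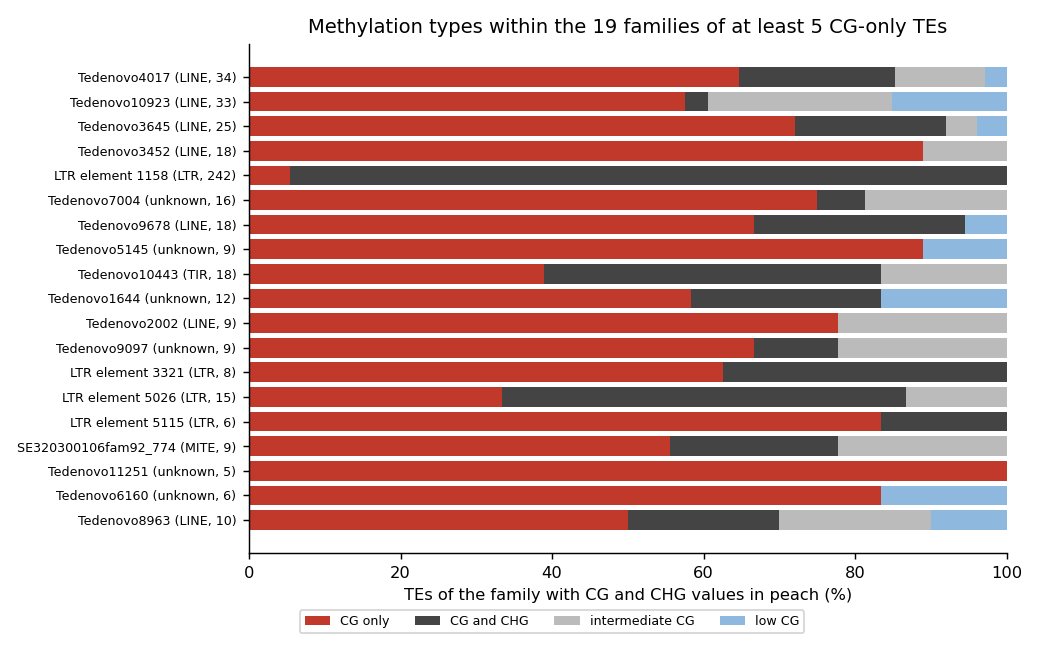
Methylation types in peach of the copies of the 19 families with at least 5 CG-only TEs (% of copies with CG and CHG values; class and number of copies in brackets). CG-only copies were the majority in most of the LINE families, with 16 of 18 copies in Tedenovo3452, and 13 of 242 in Ppersica_LTRretrotransposon1158 (shortened to LTR element in the plot).

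LTR elements are named after the same reference copies in both genomes, so the almond copies of the names that were CG only in peach could be counted in almond leaves, whose values did not enter the rule. Of 73 such names, 50 had almond copies with values, and 27 of these 437 copies (6.18%) were CG only in almond. Over all LTR names in almond, 74 of 12483 copies (0.593%) were CG only. For Ppersica_LTRretrotransposon3321, 5 of 8 peach and 5 of 7 almond copies were CG only. For Ppersica_LTRretrotransposon4435 there were 4 of 8 in peach and 4 of 7 in almond, and for Ppersica_LTRretrotransposon778 there were 4 of 5 and 3 of 6. In these names, picked after their values were seen, the state was thus found in both species. Only 13 of the 50 names had any CG-only copy in almond, so most had none. Names from the runs of LTR elements had 1 of 58 almond copies CG only (1.72%). That share rests on 1 copy and is not below the share over all LTR names. Some of these copies may stand at the same place in both genomes, which was not examined. The names of the other families are numbered separately in each genome and were not compared.

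Hybrid reads were aligned to the peach genome with settings that let reads of both parental copies align, so a hybrid value on a peach TE can hold almond reads, and their share cannot be told apart. Both CG and CHG values were available in the hybrid for 293 of the 370 CG-only TEs (79.2%), close to the 81.2% of CG and CHG TEs. Of the 293, 197 (67.2%, exact binomial interval of 95% from 61.5% to 72.6%, which covers counting error only) met the same limits in the hybrid. Over all 16756 TEs with the 4 values, 246 were CG only in the hybrid (1.47%), and 197 of those 246 (80.1%) were CG only in peach too. The limits of CG and CHG TEs were met again by 98.2% of those TEs, and the low CG limit by 77.5% of the low CG TEs. As members were chosen by their peach values, each of these shares starts from values selected on 1 side.

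The limits were missed in the hybrid in 2 ways. In 59 of the 293, CG methylation stayed at 70% or above and CHG methylation exceeded 10%. In 33, CHG methylation stayed at or under 10% and CG methylation was under 70%, and in 4 both limits were missed. The CG level was lower in the hybrid by a median of 3.45 points (the hybrid minus peach difference was -3.45, 300 TEs), against -1.64 in CG and CHG TEs. The CHG level was higher by a median of 0.60 points (301 TEs), against -5.41 in CG and CHG TEs. CHH was higher by a median of 0.38 points (312 TEs), against -0.13. CG-only TEs had little room for a fall in CHG methylation, and the CG and CHG differences reuse the peach values of the rule. The limit set by incomplete conversion also applies to CHG and CHH differences this small.

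Higher CHG levels and differences in CG level of at least 10 points were more frequent than among all TEs, most of which are CG and CHG TEs. Against the other types the contrast was smaller or absent. The lower quartile of the CG difference was -10.6 points in CG-only TEs and -15.1 in intermediate CG TEs. The upper quartile of the CHG difference was 5.56 points in CG-only, 4.37 in intermediate CG and 3.19 in low CG TEs. CHG methylation was higher in the hybrid by at least 10 points in 58 of 301 CG-only TEs (19.3%), and in 4.77% of all peach TEs with both values. CG methylation was lower by at least 10 points in 77 of 300 (25.7%), and in 7.12% of all. CG methylation was higher by at least 10 points in 13 of 300 (4.33%), against 1.95%. CHG methylation was lower by at least 10 points in 0 of 301, which the CHG limit of the rule fixes, and in 18.9% of all. The higher CHG level was found in 31 of 33 CG-only TEs at the few places described next, and in 27 of 268 elsewhere (10.1%). The lower CG level was not tied to those places, since it was found in 72 of the 266 CG-only TEs outside them (27.1%).

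LINEs kept the pattern in 77 of 97 TEs (79.4%), TIR elements in 20 of 25, TEs of unknown class in 53 of 73 (72.6%), MITEs in 7 of 12 and LTR elements in 40 of 86 (46.5%). By length, it was kept in 11 of 43 TEs of at least 3 kb (25.6%), but in 61 of 76 of those from 300 bp to under 500 bp (80.3%) and in 50 of 69 of those from 1 kb to under 3 kb (72.5%). The low share in LTR elements went with the runs described further on, since outside them LTR elements kept the pattern in 40 of 58 (68.97%), and those of at least 3 kb in 7 of 10. TEs of unknown class of at least 3 kb kept it in 0 of 6, of which 5 lay in those runs. Among the leading families, the hybrid kept the pattern in 18 of 20 copies of Tedenovo4017, 13 of 17 of Tedenovo10923, 14 of 16 of Tedenovo3645 and 7 of 13 of Tedenovo3452. It was kept in all 8 copies of Tedenovo5145 and all 5 of Ppersica_LTRretrotransposon3321, and in 0 of 5 copies each of Ppersica_LTRretrotransposon1158 and Ppersica_LTRretrotransposon5115.

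**Figure D4:**
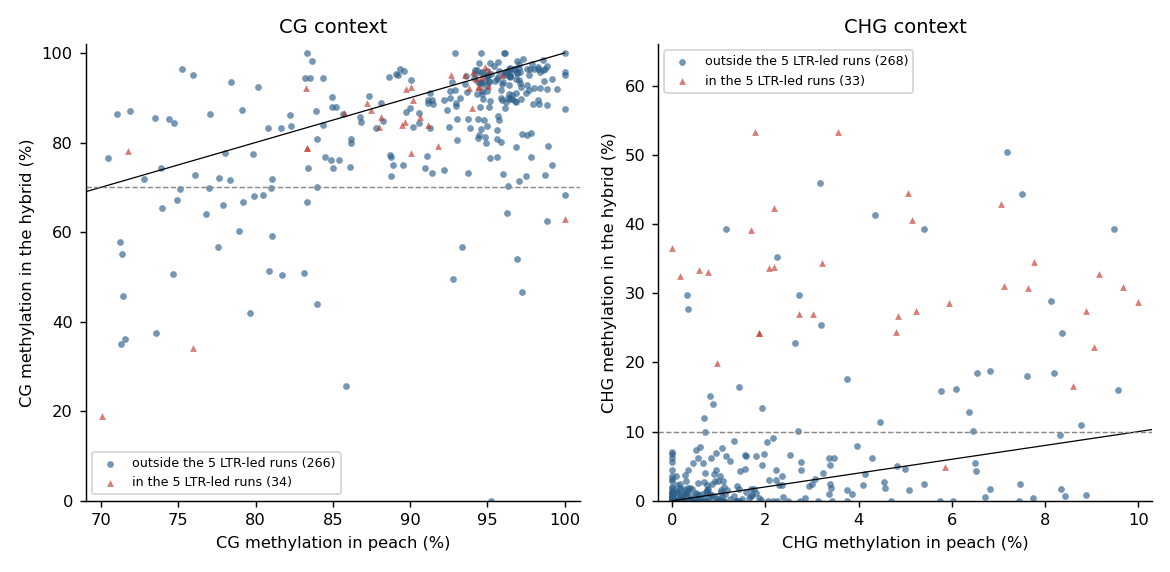
CG (left) and CHG (right) methylation (%) of CG-only TEs in peach and in the hybrid, 1 point per TE, with circles outside and triangles inside the 5 LTR-led runs, the limits of 70% and 10% as dashed lines and equality as a solid line. In the CHG panel 30 of the 33 triangles exceed 20% in the hybrid, while most circles stay under 10%.

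Of the 44 CG-only TEs whose CHG level exceeded 20% in the hybrid, 30 stood together in a few places. Runs of at least 5 CG-only TEs with steps of at most 200 kb, a definition made after the values were seen, numbered 8. In 5 of them LTR elements made up most members. These LTR-led runs lay on chromosome 3 from 12018592 to 12303983 (7 CG-only TEs of 30 with values), chromosome 4 from 20544813 to 20902345 (20 of 67), chromosome 5 from 6965531 to 7260577 (5 of 33), chromosome 7 from 4576587 to 4969476 (9 of 54) and chromosome 8 from 7996951 to 8131236 (6 of 21), in the coordinates of the deposited table. Together they held 47 CG-only TEs, of which 40 were LTR elements. They also held 34 of the 52 CG-only TEs of at least 3 kb. Members there had a median CHG level of 5.05% and a median CHH level of 1.55% in peach, against 1.05% and 0.534% elsewhere.

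In the hybrid, none of the 33 TEs of the LTR-led runs with both values kept the pattern, while 197 of the 260 elsewhere did (75.8%). The CHG level of the 33 had a median of 31.0% and exceeded 20% in 30 of them, and CG methylation stayed at 70% or above in 30. Each run showed it, with median hybrid CHG levels of 32.4% on chromosome 3 (7 TEs), 27.4% on chromosome 4 (12), 34.5% on chromosome 5 (5), 28.6% on chromosome 7 (5) and 43.3% on chromosome 8 (4). The pattern was therefore missed there through a higher CHG level, with CG methylation mostly at 70% or above. Since hybrid values can hold almond reads, a change of the peach copies themselves was not tested.

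The neighbours of these TEs had a similar difference. The other 158 TEs with values in the 5 runs had a median CHG level of 30.8% in peach, and 77 of them (48.7%) were under 30%, compared with 6.90% of the non-member TEs elsewhere. Their CHG level was higher in the hybrid in 105 of 128 (82.0%), whereas it was higher in 18.1% of 16724 non-member TEs outside the runs. The median gap of these 158 TEs to the nearest other TE was 0 bp. Many thus overlapped another listed TE and can share reads with it, so they are not separate observations. By run, the median difference over the other TEs with both CHG values, hybrid minus peach, was 13.96 points on chromosome 3 (19 TEs), 8.09 on chromosome 4 (39), 23.3 on chromosome 5 (26), 15.7 on chromosome 7 (34) and 5.10 on chromosome 8 (10). It was positive in 15, 32, 20, 31 and 7 of them, in the same order. The median peach CHG level of the other TEs was lowest in the chromosome 3 run, at 16.6%, and highest in the chromosome 8 run, at 43.3%. The TEs 500 to 750 kb to either side had the high CHG level of the rest of the genome, for instance 72.8% in peach and 68.3% in the hybrid after the centre of the chromosome 3 run.

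**Figure D5:**
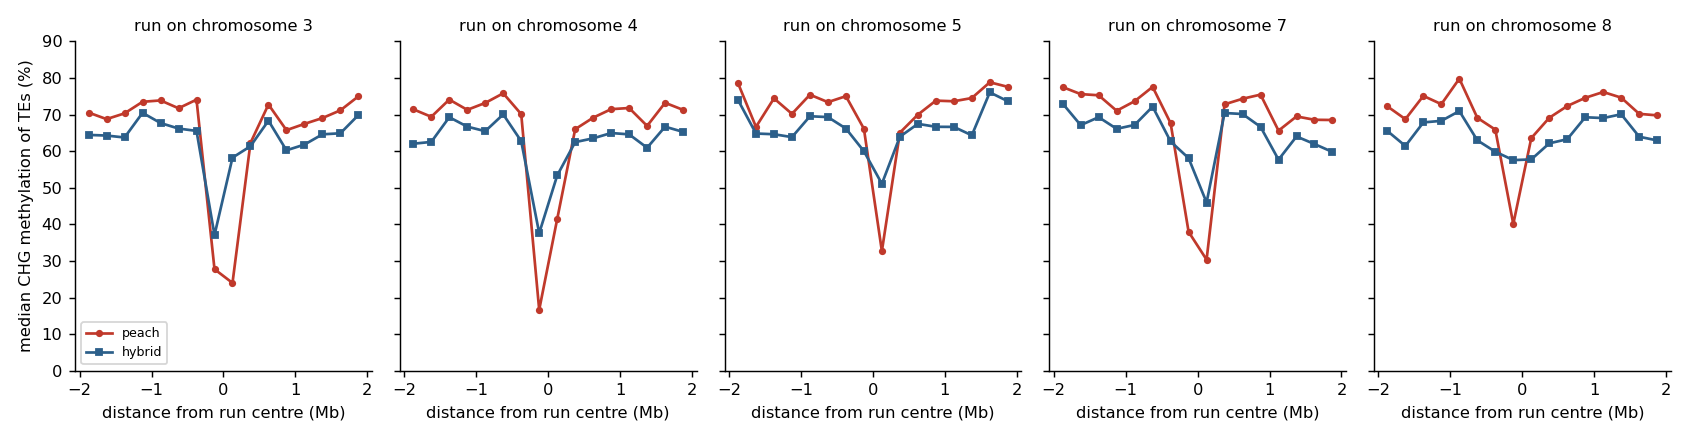
Median CHG methylation (%) of all peach TEs in bins of 250 kb by distance (Mb) from the centre of each LTR-led run, in peach (circles) and the hybrid (squares). CHG methylation dips at each centre, for example to 16.7% in peach and 37.6% in the hybrid just before the centre of the chromosome 4 run, and the hybrid line lies above the peach line at the dip and below it elsewhere.

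The other 3 runs were unlike these. On chromosome 3 from 6697762 to 6717068, the only TEs listed over 19307 bp were 5 CG-only TEs, none of them an LTR element or a known LINE, and all 5 kept the pattern. Their hybrid CHG levels lay between 0 and 2.87%. On chromosome 5 from 1701373 to 2014327, 3 of 4 TEs kept the pattern, and on chromosome 7 from 291905 to 511446, 4 of 5. The other TEs of these last runs had median CHG levels of 64.8% and 73.4% in peach, so the CG-only TEs stood there among fully methylated ones. In almond, 284 TEs met the same limits on the almond genome and 163 of 213 met them again in the hybrid. They formed 3 runs, none of them led by LTR elements.

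The 10 longest CG-only TEs with all 6 values lay in the LTR-led runs. The longest, TE_13967 of family Tedenovo12119 (chromosome 3, 12279445 to 12297990, 18546 bp), had 90.1% CG, 3.22% CHG and 1.67% CHH methylation in peach. In the hybrid it had 92.4% CG, 34.3% CHG and 3.45% CHH methylation. TE_19248 of the same family (chromosome 4, 15826 bp) had 3.03% CHG in peach and 27.0% in the hybrid, with CG at 89.7% and 84.6%. It overlapped TE_19249, an LTR element of 13721 bp with 2.72% and 27.0% CHG, so these values share reads. The overlapping pair TE_19232 (Tedenovo4338, 12660 bp) and TE_19233 (LTR, 9592 bp) had 1.86% and 1.87% CHG in peach and 24.2% in the hybrid.

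Copies of Ppersica_LTRretrotransposon1158 made up 3 of the 10. TE_13935 (chromosome 3, 12527 bp) had 9.66% CHG in peach and 30.8% in the hybrid, TE_28346 (chromosome 7, 12432 bp) 4.85% and 26.8%, and TE_19281 (chromosome 4, 12090 bp) 8.87% and 27.4%. Their CG levels were between 92.6% and 96.0% in peach and between 94.2% and 95.1% in the hybrid. TE_32410 (Tedenovo4338, chromosome 8, 10760 bp) had 3.56% CHG in peach and 53.2% in the hybrid, and TE_28347 (Ppersica_LTRretrotransposon4529, chromosome 7, 9832 bp) 7.63% and 30.7%. All 10 thus had a higher CHG level in the hybrid with CG methylation above 78%. Outside the runs, 11 of the 17 CG-only TEs of at least 3 kb with both hybrid values kept the pattern, such as the LTR element TE_4026 of 4396 bp with CHG levels of 0.741% and 1.25%.

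The greatest difference in CHG methylation among CG-only TEs with all values was that of TE_32411, a copy of Ppersica_LTRretrotransposon5026 on chromosome 8 inside TE_32410, from 1.78% to 53.2%. It was followed by TE_32410 itself. Next came TE_8778 (Tedenovo9486, chromosome 2, 8316203 to 8319866), from 7.19% to 50.4%, which lay in no run. TE_34352 (Ppersica_LTRretrotransposon5490), on an unplaced scaffold, had 3.18% in peach and 45.9% in the hybrid, and TE_21513 (Ppersica_LTRretrotransposon3127, chromosome 5) 2.18% and 42.3%. CHH methylation of these 5 stayed under 5% in the hybrid.

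Among CG-only TEs with all values, the 5 with the greatest decrease in CG level from peach to hybrid were all under 500 bp long. TE_27987 (Tedenovo11251, chromosome 7, 2705890 to 2706149, 260 bp) had 95.2% CG methylation in peach and was listed at 0 in all 3 contexts in the hybrid. TE_21495 (Pdulcis26_LTRretrotransposon736, chromosome 5, 386 bp) had 70.1% and 18.998%, and an excluded copy of the same name, TE_19239, had 68.3% and 20.7%. Both short copies of Tedenovo7004 among them had similar values, with 97.2% and 46.6% in TE_20577 (459 bp) and 92.8% and 49.6% in TE_2819 (350 bp). TE_1299, a LINE copy of Tedenovo10923 of 409 bp, had 96.9% and 53.9%. CHG methylation was 0 in the hybrid in 4 of these 5, so in the latter TEs the lower CG level came with no CHG methylation. The number of cytosines behind each value is not known.

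RNA of the families that hold CG-only TEs could be compared for the few families in the count table. Their reads were aligned to representative copies of each family, so the part that comes from CG-only copies is unknown. Libraries held 7485763 to 17725455 read pairs. Of 10 such families, 9 passed the filter on low counts and none was called between hybrid and peach (edgeR's quasi-likelihood test, called at an absolute log2 fold change of 1 or more with a Benjamini-Hochberg adjusted p under 0.05), whereas 7.51% of all 19085 features tested did. None was called by DESeq2 either, and 1 of the 9 had an unadjusted p under 0.05. That family was LINE_8963, of which 5 of 10 copies were CG only in peach. Its level was 10.2, 10.6 and 7.12 CPM (counts scaled to a common library size) in the peach libraries, 4.59, 5.50 and 5.93 in the hybrid and 1.53, 2.54 and 3.43 in almond. The groups did not overlap, and the log2 fold change from peach to hybrid was -0.80 ± 0.32 (SE), with an edgeR adjusted p of 0.150.

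LINE_3645, the family Tedenovo3645 with 18 CG-only copies of 25, had 12.7, 15.4 and 7.25 CPM in peach, 7.54, 12.2 and 11.6 in the hybrid and 16.2, 15.01 and 25.5 in almond. Peach and hybrid overlapped, with a log2 fold change of -0.18 ± 0.31 (SE). LINE_9678, with 12 CG-only copies of 18, had 4.42, 4.24 and 3.59 CPM in peach and 4.02, 5.77 and 2.67 in the hybrid, a log2 fold change of 0.03 ± 0.42. RNA of these families was thus detected in every library of both genotypes. The other tested families were LINE_3853, TIR_8712, TIR_10158, TIR_10322, TIR_9813 and LTR_138, each with 1 or 2 CG-only copies. They had log2 fold changes between -0.64 (TIR_9813) and 0.69 (TIR_10322), each with an adjusted p above 0.3 in edgeR. In TIR_9813 and TIR_10322, too, the peach and hybrid libraries did not overlap. The share of all features without overlap, or with an unadjusted p under 0.05, was not counted, so neither is read as a result about these families. LINE_10342, the family that missed the filter, had counts in 1 peach library only.

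For the enzymes of the pathway, 9 peach gene models listed by the study as RNA-dependent RNA polymerases, DNA methyltransferases or DNA demethylases were read from the same fit. Of these 8 were tested, none was called by edgeR, and 2 had an unadjusted p under 0.05. Both were RNA-dependent RNA polymerases, enzymes that make double-stranded RNA for small RNA production. Prupe.1G332600.1 had 1.23, 1.06 and 4.33 CPM in peach and 0.314, 0.983 and 0.417 in the hybrid, a log2 fold change of -1.94 ± 0.72 (SE; edgeR adjusted p of 0.119). Prupe.1G334500.1 had 2.34, 2.25 and 4.86 CPM in peach and 0.754, 1.51 and 0.501 in the hybrid, a log2 fold change of -1.76 ± 0.62 (edgeR adjusted p of 0.0984). DESeq2 called both, with adjusted p-values of 0.0484 and 0.0370. In neither gene did the peach and hybrid libraries overlap, nor did they in Prupe.6G011600.1 and Prupe.6G119100.1. Prupe.6G011600.1 was near the floor, with 70 counts over the peach libraries and 6 over the hybrid libraries. The share of all features without overlap, with an unadjusted p under 0.05 or called by DESeq2 was not counted. These numbers therefore have no background and are not read as a result about the enzymes. Among the methyltransferases, Prupe.6G322700.1 was the most abundant, at 74.95 ± 15.8 CPM in peach and 74.0 ± 7.73 in the hybrid (SD, n = 3 each), and the log2 fold changes of the 3 tested ran from -0.11 to 0.32. The methyltransferase Prupe.6G011600.1 missed the filter. The demethylases had log2 fold changes between -0.75 (Prupe.6G119100.1) and 0.34 (Prupe.7G005000.1).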

How the data were processed

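The methylation values are percentages. Before deposit, the authors aligned bisulphite reads with Bismark 0.19.1, kept unique best alignments, used cytosines with 3 or more reads, and summarised them with SeqMonk as a percent per annotated TE and context. The genome build's name is not given in the sources used here. TE class came from the TE names, the count table and the part held of the published annotation of the same genome. No peach gene annotation or genome was used here, so overlap with genes, RNA of host genes, leaf markers and sequences were not analysed.

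The counts were deposited by the authors without normalization, after RSEM with Bowtie2 had aligned stranded reads to peach gene models plus representative copies of TE families. Every count is even, so a read pair counts as 2. A line that held 2 records was split. The test was that of edgeR 4.0.16 in R 4.3.3 (filterByExpr, TMM factors, all 9 libraries, genotype as factor), with DESeq2 1.42.0 as an alternative, after a check on simulated counts. CPM use TMM-scaled library sizes. Whether the replicates of a genotype are separate trees is not stated, so p-values measure the spread between these libraries. LTR families of the count table were matched through the annotation's cluster numbers.

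Named TEs are the 10 longest, the 5 with the greatest CHG increase and the 5 with the greatest CG decrease, all with 6 values, the 3 with the highest CHH, the 5 leading families and the 5 TEs on each side of a limit. Others were named after their values were seen. Members and lists were chosen with earlier results of these data known. Alternatives were other limits, lengths, summaries and denominators, and for RNA other scalings, filters and libraries. Pandas 2.3.3 and matplotlib 3.10.9 were used.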

Additional observations from a re-analysis of the deposited data

How the results depend on the processing

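The share of CG-only TEs that kept the pattern, 67.2%, was 56.2% with limits of 80% CG and 5% CHG in both genotypes, 53.2% with TEs without a hybrid value counted as lost, and 75.8% without the 5 LTR-led runs. The median CG difference of -3.45 points was -6.63 as a mean. The median CHG difference of 0.60 points was 0.33 without the runs, 1.38 in TEs of at least 500 bp, 5.42 as a mean and 15.8 as a mean weighted by length, and the CHH difference of 0.38 points was 0.82 and 1.20 as such means. The median peach CHH level was 0.401% with the stricter limits, 1.26% with limits of 60% CG and 20% CHG, and 1.69% as a mean. Median length was 686.5 bp with the looser limits and 531 bp without the runs. The LTR share of 33.0% was 27.1% with the stricter limits, 43.4% with the looser and 25.4% without the runs. The LINE share was 20.4% with the looser limits, and the MITE share 10.8% with those and 4.11% among TEs with hybrid values in all contexts. The alternatives gave 99 values, of which 78 stayed within the interval of 95% of the reported value or at the same count. These intervals treat TEs as independent, although some overlap and share reads. The 99 include the RNA counts of the next paragraph, nearly all of them unchanged. Of the 21 values that moved, nearly all were methylation, length or class values, so the tally overstates how stable those were. Only the CG, CHG and CHH differences could change direction, and none did. Leaving out the runs and counting overlapping TEs once were chosen after the data were seen.

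The count of TE families called was 0 under every RNA alternative, and that of the 9 enzyme genes was 0 except with DESeq2, which called 2. With each library left out in turn both counts stayed at 0. Hybrid and peach RNA share only the numbers 1 and 3, whose deviations correlated at 0.0164 and -0.0401, so they pair no samples. The replicate block gave 0 calls among the families and 0 among the enzymes. Overlap with gene models was not run, for want of an annotation here. The unknown coverage per TE limits single values most in short TEs.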
